A study of Mus musculus with 25 samples.

Results

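The 4 precursors described here are mmu-mir-7a-1, mmu-mir-7a-2, mmu-mir-7b and mmu-mir-671 (the prefix for mouse is left out below), the miRNA hairpins tied to the neuronal circular RNA Cdr1as, picked by name from the 1193 precursors of the deposited count table. All 4 passed the filter on low counts that left 425 precursors for testing. Small RNA had been sequenced from brain hemispheres of 25 male C57BL/6 mice, an inbred laboratory strain. The mice formed 5 groups, which differed in age alone by the labels: 2, 9, 15, 24 and 30 months, with 5 mice and 5 libraries each. No treatment, transgene or other allele is named. Each title carries its own animal number, so the libraries of an age were taken as separate animals.

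miR-7 is an ancient miRNA that is most abundant in neurons and neurosecretory cells of the brain, the pituitary included, and its known targets include the mRNA of α-synuclein. Cdr1as is a circular RNA of neurons with many conserved sites for miR-7 and a nearly complementary site for miR-671, through which it can be cut. In mice that lack Cdr1as, miR-7 is known to be lower and miR-671 higher in the brain, and the long noncoding RNA Cyrano is known to direct the decay of miR-7. Circular and long noncoding RNAs are not in a table of miRNA precursors, so the values below concern only the miRNA side of this circuit.

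The mature sequences are shown first because they decide which counts can be told apart. All come from RefSeq (GRCm38.p6), run 5′ to 3′ and have the seed, bases 2 to 8, in capitals.
miR-7a-5p: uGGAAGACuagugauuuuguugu
miR-7b-5p: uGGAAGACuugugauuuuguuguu
miR-671-5p: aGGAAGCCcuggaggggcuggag
miR-671-3p: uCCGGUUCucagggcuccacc
The miR-7 products share the seed GGAAGAC, which no other mature miRNA among the 1679 names of that RefSeq table carries. miR-7a-5p and miR-7b-5p differ within the 23 bases of the former by A10U, counted from the 5′ end with the base of miR-7a first. The seeds of both miR-671 arms are likewise found in no other mature miRNA of the table. miR-671-5p is the arm complementary to Cdr1as, and the deposited counts do not separate it from miR-671-3p, since both arms of a hairpin are counted together.

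The mir-7 hairpins show how far copies of a family can be separated by their reads. The annotated 5p arm is in capitals.
mir-7a-1: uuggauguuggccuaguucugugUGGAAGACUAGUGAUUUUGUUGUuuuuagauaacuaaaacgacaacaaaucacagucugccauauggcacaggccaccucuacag
mir-7a-2: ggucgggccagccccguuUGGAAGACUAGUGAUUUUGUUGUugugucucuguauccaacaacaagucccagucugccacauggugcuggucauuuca
mir-7b: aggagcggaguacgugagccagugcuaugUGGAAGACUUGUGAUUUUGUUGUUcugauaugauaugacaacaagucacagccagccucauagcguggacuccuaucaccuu
The mir-7a hairpins are identical over 68.8% of their alignment, and their longest shared run is 24 bases, which covers the whole 5p product. The longest run that mir-7b shares with either mir-7a hairpin is 14 bases, interrupted by the base that differs. Reads of miR-7a-5p therefore fit both mir-7a loci equally well, whereas the 3p arms differ. For this reason the mir-7a copies were also tested as a sum, as were all 3 mir-7 loci. How a read that fits both mir-7a loci was counted is not given in the sources used here. Had it been counted at each, the sums would hold it more than once. The level of the sums, and of shares or ratios built on them, therefore depends on that treatment.

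By the GENCODE M21 annotation of GRCm38, mir-7a-1 occupies chr13:58392779-58392886 (minus strand), within an intron of Hnrnpk, an RNA-binding protein gene read from the same strand. mir-7a-2 occupies chr7:78888277-78888373 and mir-7b chr17:56242988-56243098, both on the plus strand and between genes. The nearest protein-coding genes are Aen, 7481 bp from mir-7a-2, and Fem1a, 13712 bp from mir-7b. mir-671 occupies chr5:24592114-24592211 (plus strand), inside the coding part of an exon of Chpf2, a gene of chondroitin synthesis, and opposite an exon of Smarcd3. Reads from fragments of those mRNAs cannot be told apart from mir-671 reads in this table, and the use of strand in counting is not given in the sources used here.

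Levels are given in CPM, counts scaled to a common library size (CPM), after scaling library sizes with the trimmed mean of M values (TMM). Library totals ranged from 3.78 to 9.52 M reads. The libraries of sequencing lane 3, 1 of each age, are marked below because they stood apart for the mir-7a copies. As a check of the tissue, all 17 precursors of the list of neuronal markers, mir-124 and mir-9 among them, were tested, and their summed level lay between 76881 and 98953 CPM. All 4 circuit precursors were of middle rank. mir-671 averaged 146 ± 15.1 CPM (SD, n = 25), which placed it 202nd of 425. mir-7a-1 averaged 139 ± 15.7 CPM (204th), mir-7a-2 122 ± 15.4 CPM (213th) and mir-7b 73.6 ± 8.01 CPM (233rd). Behind these levels stood 538 to 1336 reads per library for mir-671 and 268 to 710 for mir-7b. Adapter ligation favours some small RNAs over others, so the order of different miRNAs within a library need not be their order in the tissue. The highest library exceeded the lowest by 1.58-fold for mir-7a-1, 1.64-fold for mir-7a-2, 1.49-fold for mir-7b and 1.61-fold for mir-671, over all ages.

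Between 2 and 30 months, the widest interval, 0 of 4 precursors passed the test, against 36.9% of all 425 precursors tested (19.1% higher and 17.9% lower at 30 months). No member reached an unadjusted p under 0.05 in this comparison with edgeR's quasi-likelihood test (0 of 4), and 0 of 4 passed with DESeq2. The log2 differences were -0.01 ± 0.10 for mir-7a-1 (SE, 95% interval -0.21 to 0.19), -0.06 ± 0.10 for mir-7a-2 (-0.27 to 0.15) and -0.09 ± 0.09 for mir-7b (-0.27 to 0.09). mir-671 lay at -0.09 ± 0.09 (-0.27 to 0.09), and the Benjamini-Hochberg adjusted p of the 4 ran from 0.450 to 0.952. Differences within those intervals could not be shown at this number of animals. The median log2 difference of all 425 precursors was 0.05.

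**Figure D1:**
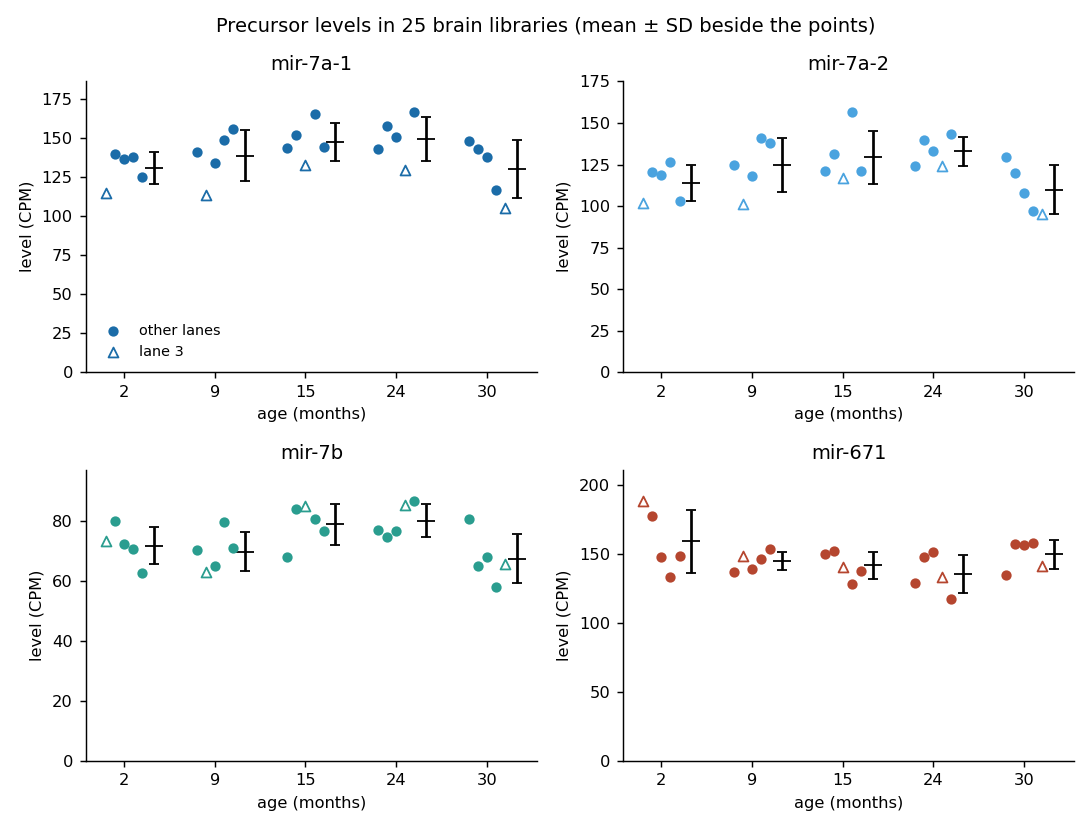
Level in CPM (vertical axes, from 0) of mir-7a-1, mir-7a-2, mir-7b and mir-671 by age in months (horizontal axes), with a point per library, open triangles for lane 3, and the mean ± SD of 5 libraries beside each age. The mir-7 loci have their highest means at 24 months and their lowest at 30 months, while mir-671 has its lowest mean at 24 months.

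mir-7b is the mir-7 locus whose reads can be told from those of the others by sequence, so its values are given library by library. At 2 months it lay at 73.5, 79.9, 72.3, 70.7 and 62.5 CPM, and at 9 months at 70.4, 62.9, 65.1, 79.6 and 70.9 CPM. At 15 months the values were 68.2, 84.0, 85.1, 80.7 and 76.7 CPM, so that 3 of 5 lay above every 2-month library. At 24 months they were 76.9, 74.9, 76.8, 85.5 and 86.7 CPM, the narrowest spread of the 5 ages. The 30-month libraries stood at 80.7, 65.0, 67.9, 58.1 and 65.7 CPM. Of these, 4 lay below every 24-month library and replicate 1 lay among them. The means ± SD (n = 5) were 71.8 ± 6.23, 69.8 ± 6.48, 78.9 ± 6.86, 80.2 ± 5.52 and 67.5 ± 8.25 CPM in order of age.

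mir-7a-1, whose row had the highest mean CPM of the mir-7 loci, had a like course. It lay at 115, 139.7, 136, 138 and 125 CPM at 2 months and at 143, 158, 151, 129.6 and 167 CPM at 24 months. At 30 months it lay at 148, 143, 138, 116 and 105 CPM, with 2 libraries below the whole 24-month range. The means ± SD (n = 5) were 131 ± 10.5, 139 ± 16.3, 148 ± 12.1, 149.6 ± 14.2 and 130.2 ± 18.5 CPM in order of age. mir-7a-2 had means of 114 ± 10.9, 125 ± 16.3, 129 ± 16.1, 133 ± 8.68 and 109.8 ± 14.8 CPM. It ran from 124 to 143 CPM at 24 months and from 95.2 to 129.5 CPM at 30 months, with 4 of 5 libraries of 30 months below that range. Its values are not a separate measurement from those of mir-7a-1, since both loci can receive the same reads. Across the 25 libraries the rank correlation of the mir-7a copies was 0.92, a description of shared reads and shared scaling.

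mir-671, whose 5p arm can direct the cutting of Cdr1as, had its highest mean at 2 months and its lowest at 24. At 2 months the libraries stood at 189, 177, 148, 133 and 149 CPM, the widest spread of any age, with replicates 1 and 2 above all other libraries of the study. Leaving out replicates 1 and 2, the highest libraries, lowers the 2-month mean by construction. With replicates 3 to 5 alone for that age, the log2 difference of mir-671 was 0.04 at 30 against 2 months (edgeR adjusted p = 0.758). At 9 against 2 months it was 0.02 (adjusted p = 0.946). The 24-month libraries stood at 129, 148, 151, 133 and 117 CPM, and those of 30 months at 135, 158, 156, 158 and 141 CPM. The 24-month and 30-month ranges overlap. At 9 months mir-671 ran from 137 to 154 CPM and at 15 months from 128 to 152 CPM. The means ± SD (n = 5) were 159 ± 23.0, 145 ± 6.72, 142 ± 9.56, 136 ± 13.9 and 149.8 ± 10.8 CPM in order of age.

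Each step between neighbouring ages was tested next, to see where along adult life a difference might lie. Up to 24 months, 0 of 4 members passed at any step. From 2 to 9 months the log2 differences ran from -0.14 for mir-671 to 0.13 for mir-7a-2 (adjusted p from 0.354 to 0.831). Of all precursors 7.76% were called at this step, 1.88% higher and 5.88% lower at 9 months. No member had an unadjusted p under 0.05 there, and 0 of 4 passed with DESeq2. From 9 to 15 months mir-7b lay higher by 0.18 ± 0.09 (edgeR adjusted p = 0.764). It was the sole member under an unadjusted p of 0.05 in edgeR's test, 1 of 4, against 27 of all 425. At that step 0% of all precursors were called, and 0 of 4 members passed with DESeq2. From 15 to 24 months the differences ran from -0.06 to 0.04 (adjusted p from 0.798 to 0.945, 0.235% called), with 0 of 4 under an unadjusted p of 0.05 and 0 of 4 by DESeq2.

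**Figure D2:**
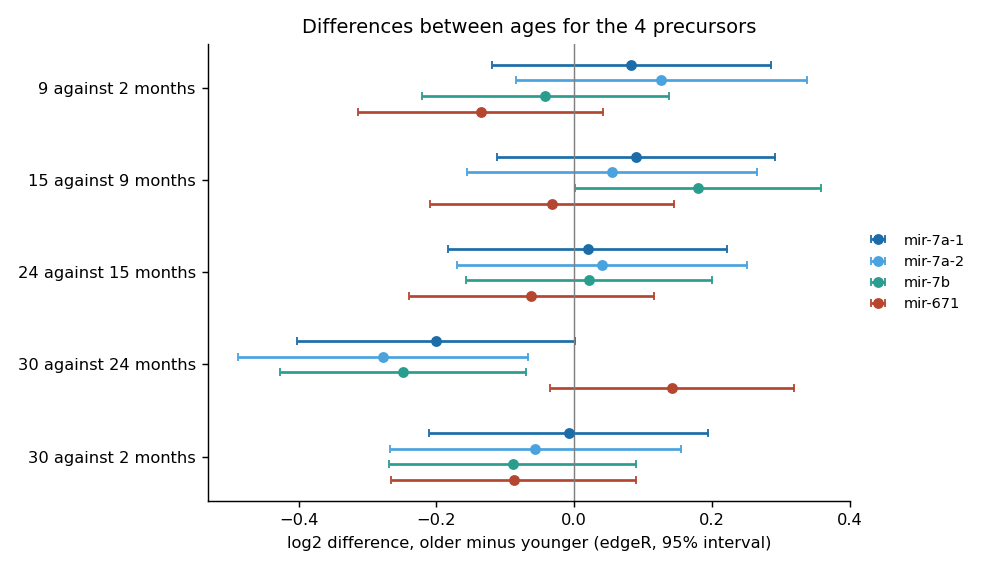
Log2 difference between ages (horizontal axis, older minus younger, edgeR) with its 95% interval for mir-7a-1, mir-7a-2, mir-7b and mir-671 in 5 comparisons (vertical axis). At 30 against 24 months the mir-7 loci lie between -0.28 and -0.20 and mir-671 at 0.14, and at 30 against 2 months all 4 intervals include 0.

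The last step, 24 to 30 months, held the largest differences of the mir-7 loci, all toward a lower level at 30 months, and none passed the test across all precursors. mir-7b lay lower by a log2 difference of -0.25 ± 0.09 (SE, 95% interval -0.43 to -0.07, edgeR adjusted p = 0.0760). mir-7a-2 lay at -0.28 ± 0.10 (-0.49 to -0.07, adjusted p = 0.0990) and mir-7a-1 at -0.20 ± 0.10 (-0.40 to 0.00, adjusted p = 0.222). With all 3 mir-7 loci summed, the mean was 363 ± 23.1 CPM at 24 months and 308 ± 39.0 CPM (SD, n = 5) in the oldest mice. That is a log2 difference of -0.25 ± 0.10 (adjusted p = 0.105), with a 95% interval from -0.45 to -0.05. mir-671 lay on the other side, at 0.14 ± 0.09 (-0.04 to 0.32, adjusted p = 0.342). In this comparison 0 of 4 members passed with edgeR, 2 of 4 had an unadjusted p under 0.05, against 95 of all 425, and 8.71% of all precursors were called, 6.12% higher and 2.59% lower at 30 months.

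Whether the mir-7 loci pass at this step depends on the setting. The adjusted p covers the precursors within a comparison, not the number of comparisons or settings. Among 9 alternatives, mir-7b passed in 4 and mir-7a-2 in 3. mir-7b passed with DESeq2 (adjusted p = 0.0323), with library totals (0.0418), with upper-quartile scaling (0.0431) and with lane as a covariate (0.0356). mir-7a-2 passed with DESeq2 (0.0495), with upper-quartile scaling (0.0484) and with lane as a covariate (0.0263), and DESeq2 thus called 2 of 4 members, against 10.8% of the 408 precursors it gave an adjusted p. Of all precursors, 12.9% were called with lane as a covariate, 10.1% with library totals and 7.06% with upper-quartile scaling, against 8.71% as reported. Upper-quartile scaling and library totals also moved the median of all precursors, from 0.00 to -0.07 and -0.04, about as far as they moved mir-7b. Without lane 3, without the filter and with the libraries of both ages alone, the adjusted p was 0.165, 0.147 and 0.128 for mir-7b and 0.104, 0.166 and 0.121 for mir-7a-2. Over 25 fits that each left out 1 library, mir-7b ran from -0.35 to -0.21 (edgeR adjusted p from 0.0128 to 0.207) and summed mir-7 from -0.33 to -0.19 (0.0205 to 0.235). Each passed in 1 of them, without 30-month replicate 1. That is the 30-month library with the highest mir-7 level, so leaving it out lowers the mean of its age by construction. mir-7a-1 and mir-671 passed under no setting at this step, with adjusted p from 0.0552 to 0.421 for mir-7a-1 and from 0.287 to 0.652 for mir-671. The rows of mir-7a-1 and mir-7a-2 can hold the same reads, so their unlike calls do not set the copies apart.

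**Figure D3:**
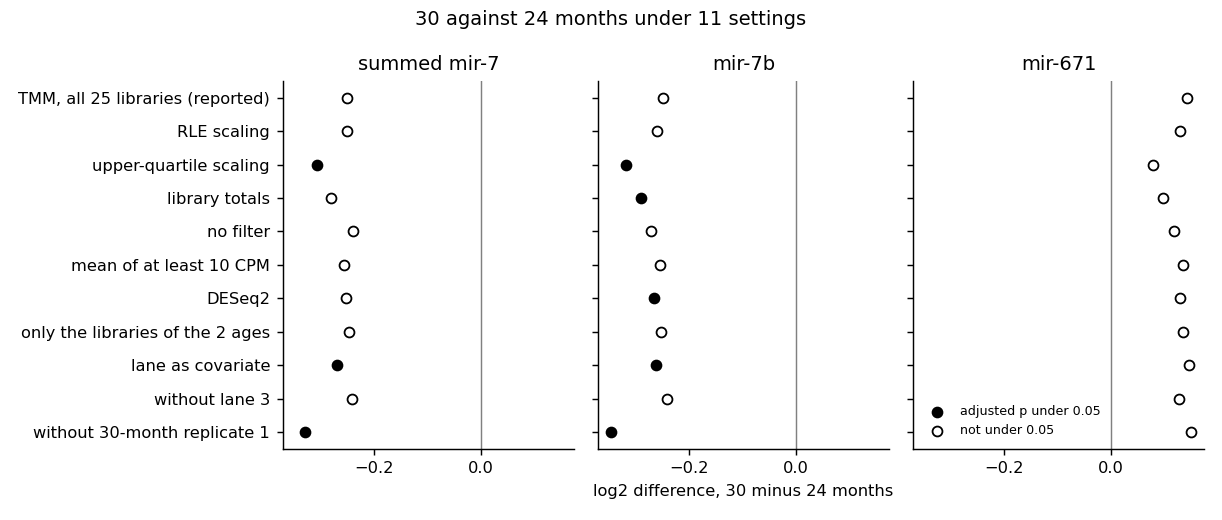
Log2 difference between 24 and 30 months (horizontal axes, 30 minus 24) of summed mir-7, mir-7b and mir-671 under 11 settings (vertical axis), filled where the adjusted p is under 0.05. The mir-7 values drawn lie between -0.35 and -0.24 and cross the threshold in some settings, and mir-671 stays above 0 and is filled in none. Of the 25 fits without 1 library, only the 1 in which summed mir-7 and mir-7b passed is drawn, without 30-month replicate 1. Over all 25, the values reached -0.19 for summed mir-7 and -0.21 for mir-7b.

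Lane was the batch that the column names record, and 4 lanes held a library of both 24 and 30 months. Summed mir-7 was lower at 30 months in each of them, by log2 differences of -0.35 in lane 3, -0.07 in lane 6, -0.25 in lane 7 and -0.41 in lane 8. mir-671 was higher in each, by 0.09, 0.29, 0.08 and 0.07. Of the single mir-7 loci, mir-7a-2 and mir-7b were lower in 4 of 4 lanes and mir-7a-1 in 3 of 4. An exact two-sided test with 4 lanes cannot go below p = 0.125, so these directions are a description only. Between 2 and 30 months, where lanes 3, 5, 6 and 7 held both ages, the lanes gave no shared direction. Summed mir-7 lay at -0.13, 0.13, -0.03 and 0.11 in those lanes, and mir-671 at -0.41, -0.13, 0.24 and 0.07.

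**Figure D4:**
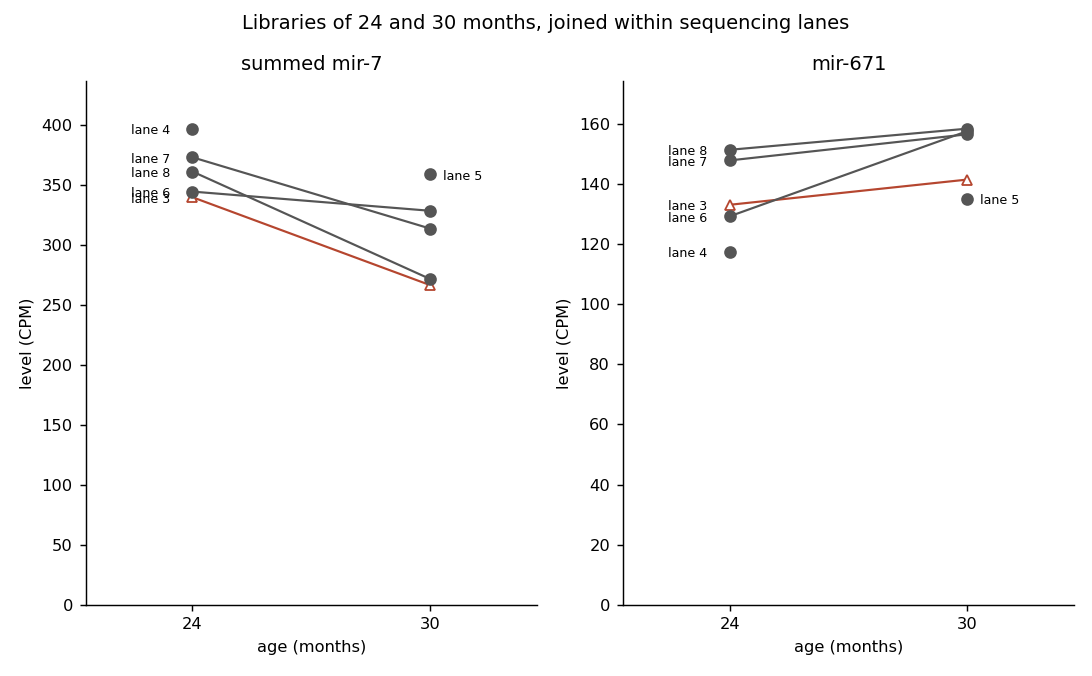
Level in CPM (vertical axes, from 0) of summed mir-7 and of mir-671 in the libraries of 24 and 30 months (horizontal axes), with lines joining libraries of the same lane and open triangles for lane 3. In each of the 4 lanes the 30-month library is lower for mir-7 and higher for mir-671, while the unpaired libraries of lanes 4 and 5 have the highest mir-7 value of their age.

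Lists of cell-type markers were also compared between 24 and 30 months. Of all 425 precursors, 6.12% were called higher and 2.59% lower at 30 months, and 95 had an unadjusted p under 0.05 with edgeR. All 3 oligodendrocyte precursors, of mir-338 and the mir-219a copies, rose, and their summed level ranged from 2870 to 3405 CPM at 24 months and from 3612 to 4554 CPM at 30 months. None of the 6 pituitary and neuroendocrine markers passed with edgeR or DESeq2 (0 of 6 by each, 2 with an unadjusted p under 0.05), and their sum ranged from 214 to 939.6 CPM and from 412 to 2165 CPM. The median log2 difference of that list was 1.91, with 1 of 6 below 0. That of the sensory and retinal list was 2.05, with 0 of 4 below 0, 0 of 4 passing with edgeR or DESeq2 and 1 with an unadjusted p under 0.05. Of 17 neuronal markers 1 rose and 0 fell with edgeR or with DESeq2 (2 with an unadjusted p under 0.05), with sums from 76881 to 86560 CPM and from 80246 to 98953 CPM. Of 6 microglia and immune markers 0 rose and 1 fell with edgeR or with DESeq2 (3 with an unadjusted p under 0.05). Of 6 choroid plexus, 4 erythroid and 3 vascular markers 0 passed with either, and 0 had an unadjusted p under 0.05. The part of marker levels in the mir-7 values was not tested. In a whole hemisphere, fewer cells of a type and less RNA per cell cannot be told apart.

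The tests over all ages likewise called no member with edgeR. No member had a slope on age that passed, with 35.5% of precursors called, 19.5% higher and 16% lower at the older ages. The slopes were 0.02 ± 0.04 for mir-7a-1, 0.00 ± 0.05 for mir-7a-2, 0.01 ± 0.04 for mir-7b and -0.05 ± 0.03 for mir-671, in log2 change per 12 months (edgeR adjusted p from 0.318 to 0.990). No slope of a member had an unadjusted p under 0.05 (0 of 4), and DESeq2 called 0 of 4. For any difference among the ages, mir-7b came nearest (adjusted p = 0.0781), followed by mir-7a-2 (0.124), mir-671 (0.206) and mir-7a-1 (0.243), with 32.7% of precursors called. There 1 of 4 had an unadjusted p under 0.05, against 187 of all 425, and DESeq2 called 1 of 4, mir-7b, against 38.1% of all. For a departure of the age means from a straight line the adjusted p ran from 0.135 for mir-7b to 0.372 for mir-671, with 7.06% called. There 2 of 4 had an unadjusted p under 0.05, against 86 of all 425, and DESeq2 called mir-7b alone, against 9.31% of the 408 precursors it gave an adjusted p. With lane as a covariate, the 3 mir-7 loci passed for any difference among ages (adjusted p from 0.0291 to 0.0312), where 44.7% of all precursors were called in that fit. Their sum also passed for the departure (0.0250), with 12.5% called.

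Ratios within a library do not depend on how libraries are scaled, so the balance of the members was compared on that scale. Their level does depend on how reads that fit both mir-7a loci were counted, which is not given. The count ratio of mir-671 to summed mir-7 was 0.649, 0.522, 0.453, 0.397 and 0.511 at 2 months. It was 0.375, 0.397, 0.419, 0.392 and 0.296 at 24 months, where 4 of 5 libraries lay below the whole 2-month range. At 30 months it was 0.377, 0.480, 0.499, 0.584 and 0.531, with 4 of 5 libraries above every 24-month library. The means ± SD (n = 5) were 0.506 ± 0.0941, 0.440 ± 0.0559, 0.401 ± 0.0493, 0.376 ± 0.0474 and 0.494 ± 0.0765 in order of age. A permutation test of any difference among ages gave p = 0.0212, which did not pass after adjustment over 6 tests (adjusted p = 0.127). Leaving out 1 library at a time gave adjusted p from 0.0253 to 0.285 in the permutation test, and it passed in 2 of 25 cases, without 2-month replicate 4 (0.0400) or 30-month replicate 1. Without lane 3 the permutation p was 0.0763 (adjusted p = 0.446). Between 2 and 30 months the log2 ratio differed by -0.03 (exact permutation test, two-sided, p = 0.841, adjusted p = 0.841). Within lanes 3, 5, 6 and 7 that difference was -0.29, -0.27, 0.27 and -0.03.

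**Figure D5:**
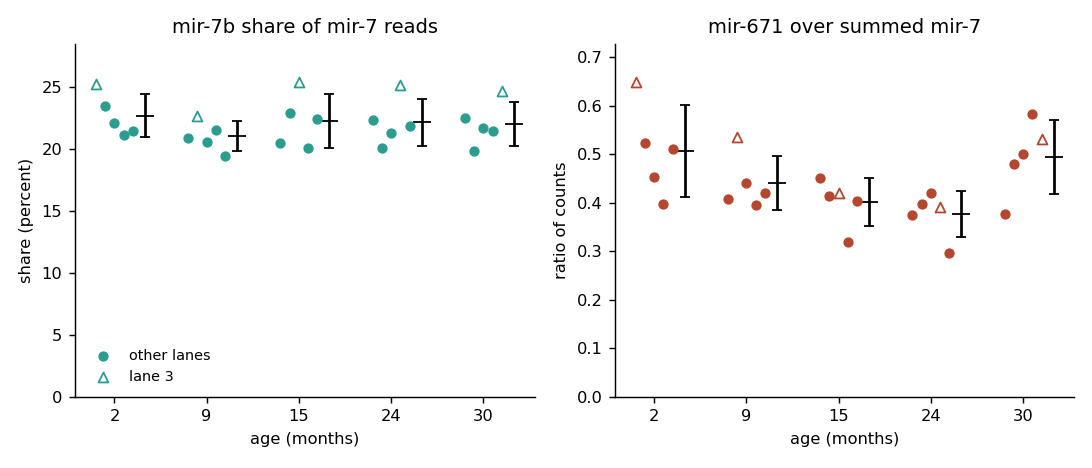
Share of mir-7b in the mir-7 reads in percent (left) and count ratio of mir-671 to summed mir-7 (right), both on axes from 0, by age in months, with a point per library, open triangles for lane 3 and the mean ± SD of 5 libraries. The mir-7b share is highest in the lane 3 library at each age, and the mir-671 ratio has its lowest mean, 0.376, at 24 months.

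The balance within the mir-7 family followed lane more visibly than age. mir-7b held 22.7 ± 1.71% of the mir-7 reads at 2 months and 22.02 ± 1.78% at 30 months (SD, n = 5; exact permutation test, two-sided, p = 0.548, adjusted p = 0.785). Its share in lane 3 ran from 22.7% to 25.4% and was the highest of its age in 5 of 5 ages, against 19.4% to 23.5% in the other lanes. In lane 3 the mir-7a copies were low, as summed mir-7a averaged 227 ± 23.4 CPM there (SD, n = 5), against 270.2 ± 26.0 CPM (n = 20) elsewhere, and lane 3 held the lowest library of each of the 5 ages. mir-7b showed no such shift, with 62.9 to 85.5 CPM in lane 3 and 58.1 to 86.7 CPM elsewhere, nor did mir-671, which was lowest in lane 3 in 0 of 5 ages. mir-7a-1 held between 51.03% and 56.1% of the reads of the mir-7a copies in every library. Since the treatment of reads that fit both copies is not given in the sources used here, this share need not describe the copies themselves. For the same reason the level of the mir-7b share is not fixed by these counts, since its denominator holds the summed mir-7a reads.

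Among mice of equal age, mir-7a and mir-7b tended to be high in the same libraries, without passing the test. With age means removed, the correlation of log2 CPM of summed mir-7a with mir-7b over 25 libraries was r = 0.50 (permutation p = 0.0312, adjusted over 3 pairs p = 0.0936), with Spearman's rho = 0.46 (permutation p = 0.0364, adjusted p = 0.109). It was r = 0.46 without the 2 libraries farthest from the median of mir-7a. With lane means removed as well r was 0.78, and without lane 3 it was 0.75 (permutation test, adjusted p = 0.00738). The lanes hold 4 or 5 libraries each, of different ages, too few for a test within a lane. With age means left in, r by lane ran from 0.13 in lane 6 to 0.96 in lane 7. These by-lane values thus include differences between ages. mir-671 showed no such relation that passed. Its r was -0.23 with summed mir-7a (permutation p = 0.261, adjusted p = 0.392; rho = -0.20, p = 0.356, adjusted p = 0.534) and -0.15 with mir-7b (permutation p = 0.512, adjusted p = 0.512; rho = -0.13, p = 0.579, adjusted p = 0.579). Without the 2 farthest libraries these were -0.31 and 0.01, and with lane removed 0.05 and 0.08. By lane, again with age means left in, r ran from -0.71 to 0.39 for mir-671 with summed mir-7a and from -0.80 to -0.14 for mir-671 with mir-7b.

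The variation between animals of an age was ordinary for these precursors. The biological coefficient of variation that edgeR estimated ran from 11.5% for mir-7b to 13.6% for mir-7a-2, with mir-671 and mir-7a-1 (13.2%) between them, against a median of 11.5% over the 425 precursors tested.

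The neuron-enriched miRNAs give the setting for these values. Of 19 precursors of that list, 8 fell and 1 rose between 2 and 30 months, beside 17.9% lower and 19.1% higher of all 425, with a median log2 difference of 0.02, against 0.05 over all 425. Copies of a miRNA count separately here, such as mir-128-1 (-0.37) and mir-128-2 (-0.35), so members of the list are not all separate measurements. The smallest p-values were those of mir-212 (-0.48 ± 0.06, SE, edgeR adjusted p = 3.90e-06) and mir-132 (-0.34 ± 0.06, adjusted p = 9.77e-05), an activity-regulated pair of neurons. Summed mir-7 relative to the median of this list differed by -0.14 on the log2 scale between 2 and 30 months (exact permutation test, two-sided, p = 0.262, adjusted p = 0.524). With the mean of the list in place of its median the difference was 0.02. A permutation test over the 5 ages gave p = 0.191 for this relative level (adjusted p = 0.524), and p = 0.00919 with the mean of the list (adjusted p = 0.0551). mir-7 was therefore not shown to part from the neuron-enriched list as a whole.

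The precursors most like each member over the 25 libraries were taken by Spearman's rho of log2 CPM, as a description of libraries that share ages, lanes and scaling. Closest to summed mir-7a were mir-653 (rho = 0.69) and the copies of the brain miRNA miR-135a, mir-135a-2 (0.68) and mir-135a-1 (0.63). With age and lane means removed these were 0.42, 0.30 and 0.17. Closest to mir-7b were mir-653 (0.57), mir-433 of the imprinted Dlk1-Dio3 region (0.48) and mir-324 (0.48), while mir-7a itself stood at 0.58. With age and lane means removed the first 3 were 0.26, 0.32 and -0.06. Closest to mir-671 were mir-3083 (0.69) and the abundant mir-181a-2 and mir-181a-1 (0.65 each), which kept 0.63, 0.58 and 0.59 with age and lane means removed. None of these 8 passed between 2 and 30 months with edgeR (adjusted p from 0.0589 to 0.790).

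The remaining marker lists are set against the same background between 2 and 30 months, 19.1% of all 425 precursors higher and 17.9% lower. All 3 oligodendrocyte precursors rose (median 0.71), led by mir-219a-1 (1.58 ± 0.12, SE, edgeR adjusted p = 1.29e-09). Of 6 microglia and immune precursors 4 rose and 1 fell (median 0.43), among them mir-146a, induced in inflammation (0.99 ± 0.13, adjusted p = 3.90e-06). Of 6 choroid plexus precursors 3 rose with edgeR and 2 with DESeq2 (median 0.31). The 6 pituitary and neuroendocrine, 4 sensory and retinal, 4 erythroid and 3 vascular markers held 0 that passed with edgeR or DESeq2, and of these lists the erythroid list alone held 1 with an unadjusted p under 0.05. Pituitary and neuroendocrine markers varied widely within an age, from 276 to 2111 CPM in sum at 2 months. Their part in the mir-7 values was not tested.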

How the data were processed

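Per the labels' protocols, total RNA of each hemisphere went into a TruSeq small RNA library. The table the authors deposited gives raw counts, 1 row per miRNA precursor with both arms together and 1 column per library. Trimmomatic 0.36, SAMtools 1.3.1-9 and bcl2fastq 1.8.4 were used, per the submitters' processing notes. Not given in the sources used here are the build, the aligner, the counter, the use of strand and how reads with several matches were treated. Groups follow the labelled age, and replicates are numbered by accession order, which pairs no animals. Lane was read from the column names.

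The count tests ran in edgeR 4.0.16 and DESeq2 1.42.0 under R 4.3.3, and ratios and correlations with Python 3.11.15 and SciPy 1.17.1. Of 1193 precursors, filterByExpr kept 425. The quasi-likelihood fit of edgeR took all 25 libraries, TMM scaling and a mean per age, and a further fit took age as a number. Benjamini-Hochberg adjustment ran over all 425 within each comparison, with a threshold of 0.05. It did not cover the number of comparisons or settings. The SE is the log2 difference divided by the root of F. Sums of loci replaced their members in otherwise equal tables. Ratios were tested with exact permutation tests (5 against 5 cannot go below p = 0.00794) and 100000 resamples. The scripts were tested on simulated data. Within-lane differences used log2(CPM + 0.5). Named were the 4 members, their sums, the 3 precursors most like each, with a mean of at least 10 CPM, and the 2 smallest p-values of a list. The members and lists were chosen with earlier results of these data known. Alternatives covered scaling, filter, tool, ages in the fit, lane and leaving out each library. The p-values between ages set a difference against the spread among libraries of an age, 1 per animal. That spread also holds library preparation, and lane where lane was not a covariate.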

Additional observations from a re-analysis of the deposited data

Results flagged for a closer look

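Of 50 groups of 5 libraries checked, 3 held a library far from the other 4 by Dixon's 95% criterion, and chance flags about 1 in 20 groups. The share of mir-7a-1 in the reads of the mir-7a copies was 51.3% in 9-month replicate 4, against 52.9% to 53.2% in the other libraries of that age. The same share was 51.03% in 24-month replicate 4, a lane 3 library, against 53.04% to 53.8%. Summed mir-7 relative to the median of the neuron-enriched list, on the log2 scale, was -2.67 in 15-month replicate 4, against -3.05 to -2.96 in the other libraries of that age.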

How the results depend on the processing

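No comparison of a single locus or of a sum of loci passed as reported. A change of call could therefore only be a value that passed in an alternative. The causes of such changes were not tested, except that upper-quartile scaling and library totals shifted all precursors at 30 against 24 months by a median of -0.07 and -0.04. Some values that never passed changed sign: mir-671 at 30 against 2 months (to 0.04) and at 9 against 2 months (to 0.02) with 2-month replicates 3 to 5 alone, mir-7a-1 at 30 against 2 months in 1 and mir-7b at 9 against 2 months in 2 of 10 alternatives, and the slopes of mir-7a-1, mir-7a-2, mir-7b, summed mir-7a and summed mir-7 in 1, 7, 4, 6 and 6 of 9. The 2-month replicates left out for mir-671 are its highest libraries of that age, so the direction of that shift was fixed by the choice. At 30 against 24 months mir-7a-2 passed with upper-quartile scaling (log2 difference -0.34), DESeq2 (-0.29) and lane as a covariate (-0.29), and mir-7b with upper-quartile scaling (-0.32), library totals (-0.29), DESeq2 (-0.27) and lane (-0.26). Summed mir-7a passed with lane (-0.27) and summed mir-7 with upper-quartile scaling (-0.31) and lane (-0.27). Of all precursors tested as single loci, 7.06% were called at this step with upper-quartile scaling and 10.1% with library totals. DESeq2 called 10.8% and the fit with lane 12.9%, against 8.71% as reported. For any difference among ages, lane as a covariate gave an adjusted p of 0.0312 for mir-7a-1, 0.0291 for mir-7a-2, 0.0312 for mir-7b, 0.0152 for summed mir-7a and 0.0147 for summed mir-7, and DESeq2 gave 0.0243 for mir-7b. For the departure from the slope, lane gave 0.0464 for mir-7a-2, 0.0260 for summed mir-7a and 0.0250 for summed mir-7, and DESeq2 gave 0.0359 for mir-7b.

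Over the 25 refits without 1 library, the difference between 24 and 30 months ran from -0.37 to -0.25 for mir-7a-2, from -0.35 to -0.21 for mir-7b, from -0.32 to -0.19 for summed mir-7a and from -0.33 to -0.19 for summed mir-7. Each passed in 1 of the 25, without 30-month replicate 1. The adjusted p for any difference among ages ran from 0.0184 to 0.151 for mir-7b, which passed without 9-month replicate 4, 15-month replicate 1 or 30-month replicate 1, and from 0.0315 to 0.188 for summed mir-7, which passed without 30-month replicate 1. That for the departure ran from 0.0269 to 0.225 for mir-7b, which passed without the same library. The permutation p of mir-671 relative to mir-7 over the ages ran from 0.00422 to 0.0475 (adjusted p from 0.0253 to 0.285), and was 0.0763 without lane 3 (adjusted p = 0.446). The correlation of summed mir-7a with mir-7b passed without lane 3 (r = 0.75) and with age means left in (r = 0.63). mir-671 passed in no edgeR or DESeq2 setting. No paired analysis was possible because the labels give the groups no shared replicate numbers and each library its own animal; this concerns pairing by animal or number, and lane was used as a block instead.

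The number of all precursors called ranged, over settings that kept each library or left out a lane or several libraries, from 9 to 50 at 9 against 2 months (33 as reported), from 19 to 55 at 30 against 24 months (37) and from 14 to 53 for the departure (30). It ranged from 0 to 2 at 15 against 9 months (0) and at 24 against 15 months (1). Without 1 library, these counts ran from 19 to 39, 16 to 53, 19 to 39, 0 to 1 and 0 to 1 in the same order. Precision was limited by the 5 animals per age.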
